A study of Petromyzon marinus with 6 samples.

Results

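The loci described here are GABRA5 and SLC4A4, 2 of the 57134 loci assembled from RNA-Seq of the sea lamprey brainstem. They were taken because a supplementary list of the study places them among 7 loci higher after GABA, and they are the 2 of those 7 that carry a gene symbol. Those names are the study's annotation. The values that chose them are thus the same GABA against control counts described below, and the difference between the groups at these 2 loci is given as a description, without a test.

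The samples came from larval sea lampreys (Petromyzon marinus) of 5 to 7 years, collected in the river Ulla (Spain), all with a complete spinal cord transection at the rostral cord. The GABA group (3 samples) was kept in water with GABA, γ-aminobutyric acid, at 500 µM, and the control group (3 samples) received no drug. Each sample pooled the brainstems of 4 animals, taken at 29 days post-lesion (dpl), although the deposited series description says 9 days. There were no uninjured animals, so every value refers to an injured brainstem. A brainstem holds neurons, glia and vessels. In such bulk samples more cells of a type and more RNA per cell cannot be told apart.

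GABRA5 is named for the α5 subunit of the GABAA receptor. In mammals these receptors are pentameric channels that open when GABA binds and let chloride and, to a lesser degree, bicarbonate cross the membrane. The direction of the current depends on the gradients of these ions. SLC4A4 is named for the electrogenic sodium bicarbonate cotransporter 1, a membrane protein that moves bicarbonate together with sodium and takes part in the control of pH. In the mammalian brain it is known mainly from astrocytes. The receptor and the transporter are therefore linked, as background, by bicarbonate.

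After scaling for library depth, both loci were higher in each GABA-treated sample than in any control sample. On the means of the groups, GABRA5 was higher by 44.1% and SLC4A4 by 30.4%. The groups separated in this direction at 5.14% of all tested loci, and these 2 were chosen on this contrast. GABRA5 had 920, 627 and 985 fragments in control replicates 1, 2 and 3, and 1316, 1433 and 1307 in GABA replicates 1, 2 and 3. Divided by the size factors of DESeq2, which bring the libraries to a common depth, the control samples had normalized counts of 865, 668 and 1122, against 1192, 1346 and 1288 after GABA. The lowest GABA-treated sample (replicate 1) lay 6.2% above the highest control (replicate 3). The control samples were far apart, with control replicate 2 the lowest, whereas the GABA-treated samples lay close together.

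SLC4A4 had 3740, 2541 and 2715 fragments in control replicates 1, 2 and 3, and 4755, 4532 and 3643 in GABA replicates 1, 2 and 3. Normalized, the control samples held 3515, 2708 and 3093 counts, and the GABA-treated samples 4306, 4256 and 3589. GABA replicate 3 stood below the other GABA-treated samples and only 2.1% above control replicate 1. As raw counts these 2 libraries were in the opposite order and the groups overlapped. After scaling by library size or by TMM, the trimmed mean of M-values used by edgeR, GABA replicate 3 was 4.62% and 3.15% above control replicate 1. The separation of the groups at SLC4A4 was therefore narrow. It was absent from the raw counts and present under each of these scalings for depth.

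**Figure D1:**
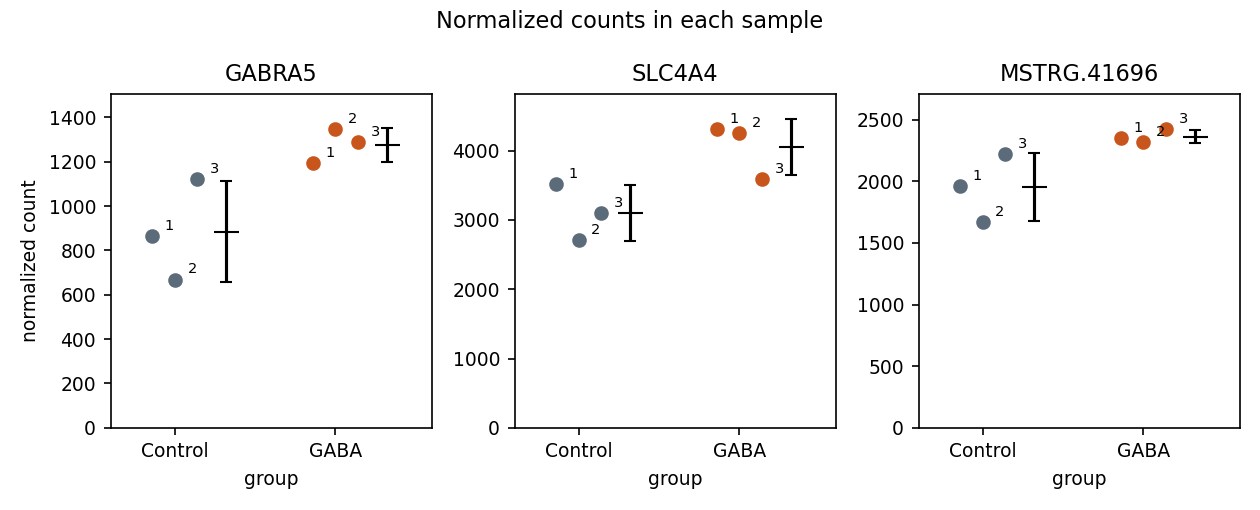
Normalized counts (y axis, counts divided by DESeq2's size factors) of GABRA5, SLC4A4 and the unnamed locus MSTRG.41696 in the control and GABA-treated samples (x axis). Points are samples with their replicate number, and the bars give the mean ± SD of 3 samples. At GABRA5 the control samples run from 668 to 1122 and the GABA-treated samples from 1192 to 1346. At SLC4A4 the lowest GABA-treated sample (3589) is close to the highest control (3515).

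Over all loci, the log2 fold change from edgeR, GABA against control, was 0.55 for GABRA5 (standard error 0.14) and 0.40 for SLC4A4 (standard error 0.098). The values that placed them on the list were adjusted p of DESeq2, 0.0491 for each of them in the DESeq2 fit made here, where the threshold is 0.05. These calls depended on the filter on low counts: DESeq2 without independent filtering gave adjusted p of 0.213 for GABRA5 and 0.227 for SLC4A4. The Benjamini-Hochberg adjusted p of edgeR was 0.718 and 0.669, and without its count filter 0.0189 and 0.0293. The locus just inside the threshold beyond these was MSTRG.55660 at 0.0497, and the loci just outside were MSTRG.9861 and MSTRG.13141, both at 0.0507. DESeq2 called 23 (0.384%) of the 5990 loci it adjusted over, and 0.117% as higher. With the quasi-likelihood test of edgeR, 0 of 24300 loci (0.0%) passed a Benjamini-Hochberg adjusted p of 0.05, and 1591 (6.55%) had an unadjusted p under 0.05. Groups that did not overlap, with the GABA-treated samples higher, were found at 1248 loci (5.14%). Since GABRA5 and SLC4A4 were chosen on this contrast, nothing is read from their place among these loci. The median log2 fold change was 0.0062 over all tested loci, and -0.03 over the 5719 loci with a mean normalized count of at least 500. Of all tested loci, 4.73% had a larger fold change than GABRA5 and 8.73% a larger one than SLC4A4. Of those 5719, 2 had a larger fold change than GABRA5 and 12 a larger one than SLC4A4. High ranks among abundant loci follow in part from the choice of both on this contrast. Among the 7 higher loci of the list, GABRA5 ranked 3 and SLC4A4 ranked 7 by fold change, whereas by mean normalized count SLC4A4 ranked 1 and GABRA5 ranked 3.

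The replicates of GABRA5 varied unequally in the 2 groups. Its coefficient of variation was 25.7% among the control samples and 6.1% among the GABA-treated samples. The 2447 tested loci with a mean normalized count within 1.5-fold of it had medians of 6.38% and 5.96%, and 99.3% of them varied less than GABRA5 among the control samples. For SLC4A4 the coefficients were 13.0% among the control and 9.88% among the GABA-treated samples, beside medians of 6.0% and 5.26% over 795 loci of like abundance. Counting alone would give a standard deviation of 2.64% to 3.99% per library at GABRA5 and of 1.45% to 1.98% at SLC4A4. The spread between control samples was thus several times larger than counting error at both loci. It was large enough that the fold change of GABRA5 ran from 0.38, without control replicate 2, to 0.74, without control replicate 3. That of SLC4A4 ran from 0.31, without control replicate 2, to 0.50, without control replicate 1.

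**Figure D2:**
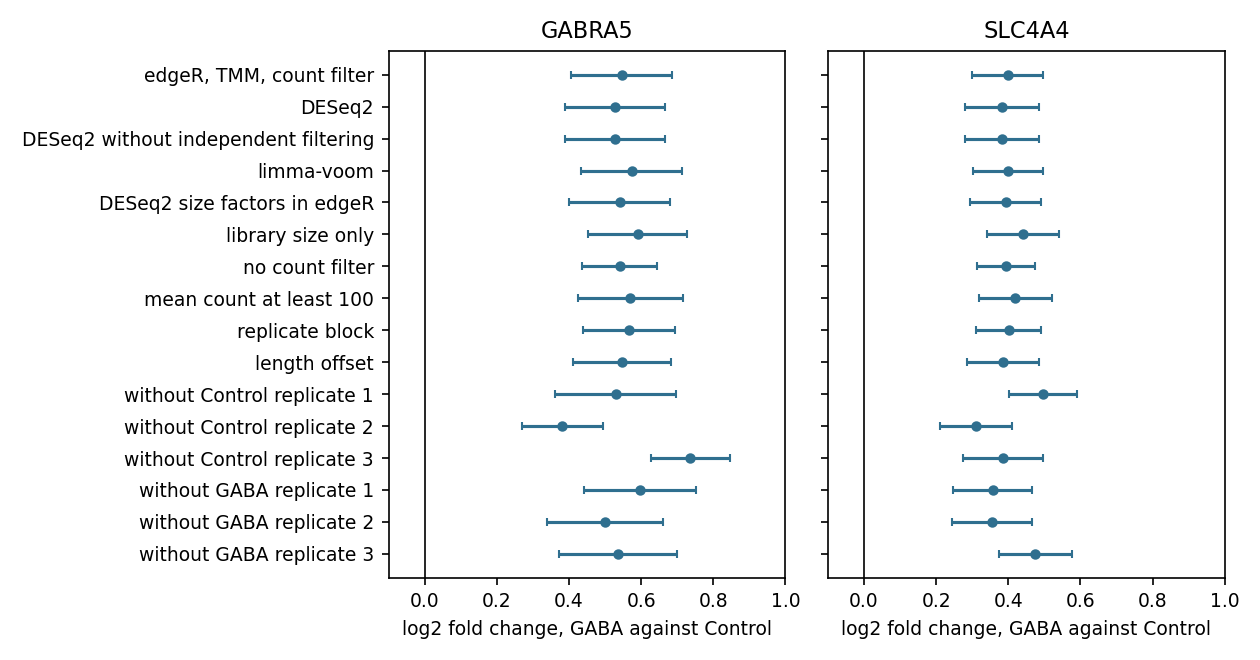
Log2 fold change of GABRA5 and SLC4A4, GABA against control (x axis), under each tool, scaling, filter or set of samples named on the y axis, with its standard error as bars. The values lie between 0.38 and 0.74 for GABRA5 and between 0.31 and 0.50 for SLC4A4. These extremes come from fits that leave out a control sample.

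The locus named GABRA5 (MSTRG.41697) lies on contig PIZI01000267.1 of the assembly Pmar_germline 1.0 from 14959 to 87968 on the minus strand. Its 108 exon entries merge into 12 blocks that add up to 9929 bp, 13.6% of a span of 73010 bp. Of these blocks, 8 are shorter than 300 bp, whereas the 2 longest (3501 and 2661 bp) hold 62.1% of the exonic length. Introns ranged from 278 to 17071 bp, with the longest between blocks 7 and 8, counted from the 5′ end. Blocks 5, 6, 8, 9, 10 and 11 stand in the table with 8 entries each, and blocks 1, 3 and 4 with 6. Blocks 2 and 7, of 99 and 43 bp, have 1 entry each. The last block, at the 3′ end, holds 40 entries of 19 to 1671 bp within 1849 bp. The exon entries of GABRA5 were thus most numerous at its 3′ end, and the counts, which are summed over the locus, do not separate them.

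The locus named SLC4A4 (MSTRG.9567) lies on contig PIZI01000012.1 from 2321853 to 2426388, also on the minus strand. It has 590 exon entries in 28 blocks, which add up to 15631 bp or 15.0% of its span of 104536 bp. It is longer than 98.7% of the tested loci and has more blocks than 97.5% of them. For GABRA5 these shares were 93.8% and 81.7%. The tested loci had a median of 4 blocks and 2505 bp. Of the 28 blocks of SLC4A4, 24 are shorter than 300 bp, and the other 4 are longer than 2 kb and hold 76.9% of the exonic length. Blocks 12 to 28 have 23 or 24 entries each, except for 57 in block 20, whereas the first 10 blocks have between 3 and 20.

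These first blocks of SLC4A4 contained a repeated pattern, which was noticed in the coordinates. Blocks 3, 4, 5 and 6 from the 5′ end are 233, 148, 161 and 154 bp long and are separated by introns of 1040, 708 and 584 bp. Blocks 7, 8, 9 and 10 are 237, 148, 161 and 153 bp long, with introns of 1041, 709 and 585 bp. The sets span 3028 and 3034 bp, and the 5′ end of each block lies between 44663 and 44670 bp from that of its partner. The longest intron of the locus, 41635 bp, separates them. The entries per block fell from 20 to 14, 10 and 4 over the first set and rose from 3 to 7, 11 and 17 over the second. A run of 3 neighbouring introns of at least 100 bp recurring within 2 bp was found at 16 of the 7873 loci with at least 8 blocks (0.203%), SLC4A4 among them and GABRA5 not. These limits fit the pattern already seen at SLC4A4, so its place among the 16 was fixed in advance. No sequence of these blocks was compared here. Where the sets are near-identical, fragments could match both, and the counts of SLC4A4 are uncertain to that extent. The 8 blocks hold 1395 bp, 8.92% of its exonic length.

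**Figure D3:**
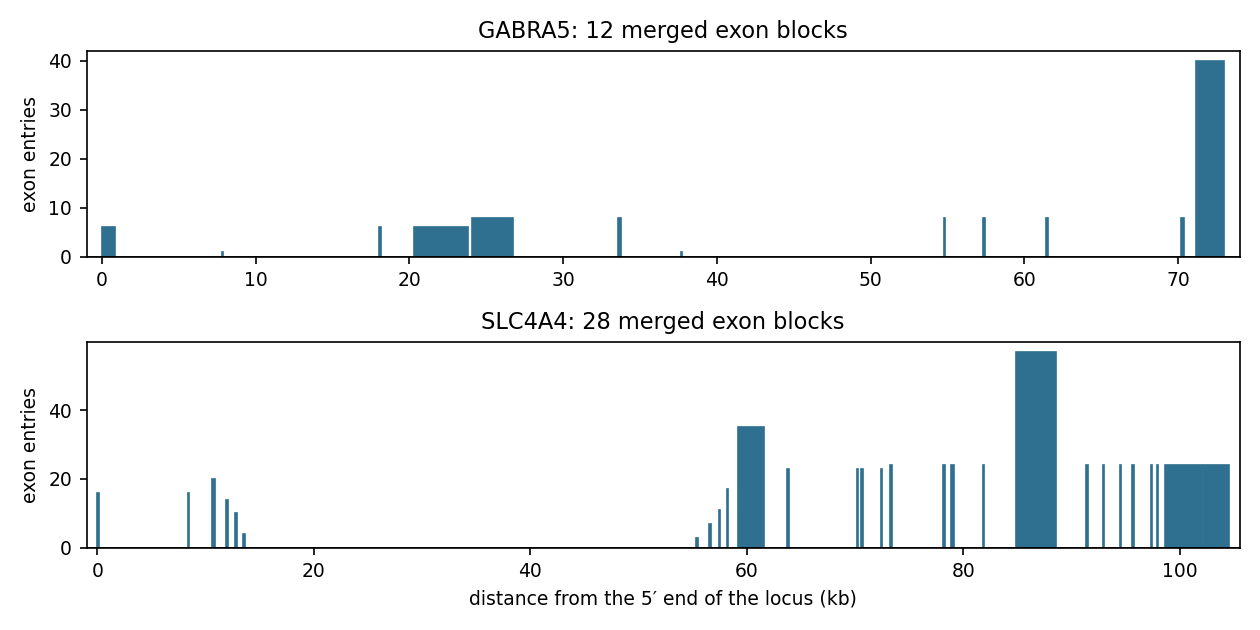
Merged exon blocks of GABRA5 (top) and SLC4A4 (bottom), drawn to scale by their distance from the 5′ end of the locus (x axis, kb), with the number of exon entries in each block as its height (y axis). The last block of GABRA5 has 40 entries. In SLC4A4, 2 sets of 4 small blocks lie on either side of the gap of 41635 bp, with entries falling across the first set and rising across the second.

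Levels of the loci are compared per length, as CPM (counts scaled to library size with TMM) per kilobase of exonic length. This length merges all exon entries of a locus, and some entries fill little of their block. They ran from 116 to 3501 bp in block 4 of GABRA5 and from 114 to 3737 bp in block 20 of SLC4A4. The levels therefore depend on the merged length. SLC4A4 had a mean level of 17.3 CPM per kilobase over the 6 samples and GABRA5 8.22. The median over the tested loci was 3.28, and 89.2% of them were below SLC4A4 and 76.3% below GABRA5. GABRA5 was at 6.69 CPM per kilobase on average in the control samples and 9.76 in the GABA-treated samples, and SLC4A4 at 14.9 and 19.7. In each library the level of SLC4A4 was above that of GABRA5, by 1.75 times in control replicate 3 and by 2.58 times in control replicate 1. SLC4A4 took between 0.0202% and 0.0332% of the counts of a library, and GABRA5 between 0.00499% and 0.0105%.

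The ratio of the raw counts of SLC4A4 to those of GABRA5 within a library does not depend on the scaling. It was 4.07, 4.05 and 2.76 in control replicates 1, 2 and 3 and 3.61, 3.16 and 2.79 in GABA replicates 1, 2 and 3. The groups overlapped, with control replicate 3 the lowest of the 6 libraries. On the log2 scale the mean ratio of the control samples was 1.83 ± 0.32 (SD, n = 3) and that of the GABA-treated samples 1.66 ± 0.19 (SD, n = 3). The difference of -0.17 was smaller than either SD, and it ran from -0.36 without control replicate 3 to -0.076 without control replicate 1.

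Over the 6 samples, Pearson's r between GABRA5 and SLC4A4 on log2 CPM was 0.77, which includes the difference between the groups that chose them, and with the group means taken off it was 0.33. Both are descriptions over 6 points, without a test. Within the groups the samples stood in different orders at the 2 loci. Control replicate 2 was the lowest control at both loci, by 0.37 below the mean of its group at GABRA5 and by 0.19 at SLC4A4 on the log2 scale. Control replicate 3 was 0.38 above the mean of its group at GABRA5 and 0.0024 above it at SLC4A4. Control replicate 1 was at the mean for GABRA5 and 0.19 above it for SLC4A4. Among the GABA-treated samples, replicate 2 was above the mean at both loci, while replicate 1 and replicate 3 deviated in opposite directions. In all, deviations at the 2 loci had the same sign in 3 of 6 libraries. This count rests in part on deviations near 0, of -0.0013 for GABRA5 in control replicate 1 and 0.0024 for SLC4A4 in control replicate 3. Deviations within a group also sum to 0, so their signs are not independent. A relation between the loci within the groups was not tested.

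**Figure D4:**
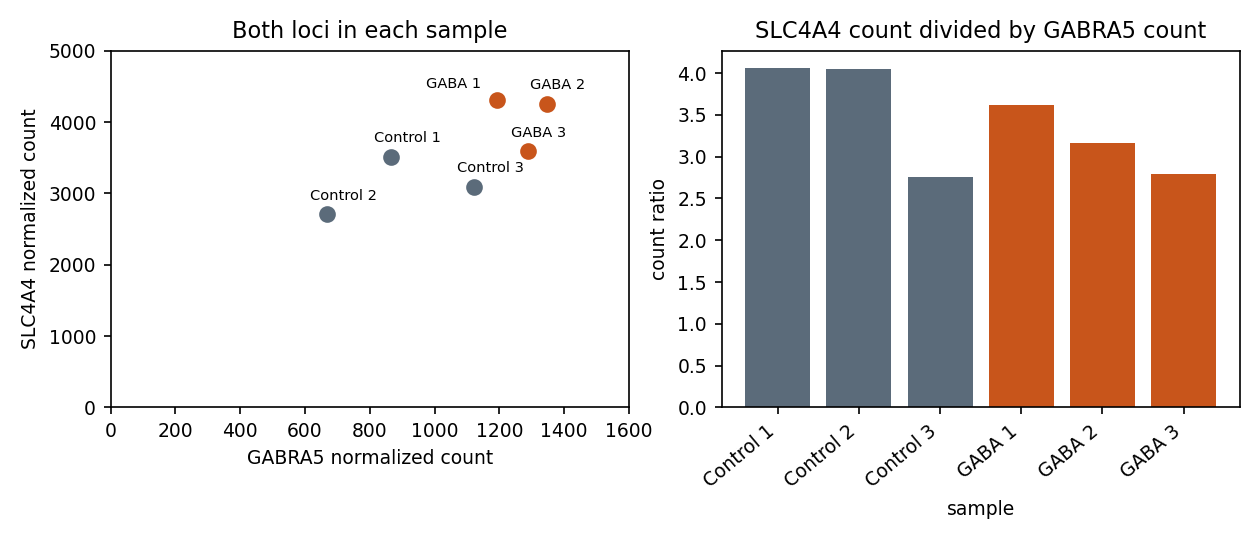
Left, normalized counts of GABRA5 (x axis) and SLC4A4 (y axis) in each of the 6 samples. Right, the SLC4A4 count divided by the GABRA5 count in each sample, which ranges from 2.76 to 4.07. Gray marks control and orange GABA-treated samples. The ratio is as low in control replicate 3 as in GABA replicate 3.

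The loci beside GABRA5 and SLC4A4 were not themselves used to choose them. On the 3′ side of GABRA5 less than 50 kb could be searched, since the locus begins at base 14959 of its contig. All 19 loci that overlap GABRA5 or SLC4A4 or lie within 50 kb were considered. Those that passed the filter on low counts were tested in the edgeR fit over all loci. None of the 19 shares exonic bases with either locus. Whether MSTRG.41696 is part of the GABRA5 transcript is not known. If it is, its test repeats the contrast that chose GABRA5. The filter on low counts was passed by 7 of the 19, of which 6 lie near GABRA5 and 1 near SLC4A4. None of the 7 passed edgeR's Benjamini-Hochberg threshold of 0.05, where 0.0% of all loci were called, and 1 had an unadjusted p under 0.05. DESeq2, which called 0.384% of its loci, gave an adjusted p to 1 of the 7, MSTRG.41696, and did not call it. Without independent filtering it adjusted over all 19 neighbours and called 0 of them. Their fold changes were above 0 at 5 of the 7, beside 51.5% of all loci tested.

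The locus with the unadjusted p under 0.05 was MSTRG.41696, an unnamed locus of a single block of 5365 bp (9506 to 14870) on the strand of GABRA5, whose 5′ end lies 88 bp beyond the 3′ end of GABRA5. It had normalized counts of 1964, 1669 and 2220 in control replicates 1, 2 and 3 and of 2350, 2316 and 2422 in GABA replicates 1, 2 and 3. The groups did not overlap, and 5.14% of all tested loci separated in this direction. The control samples stood in the order they had at GABRA5, with replicate 2 the lowest and replicate 3 the highest. The GABA-treated samples did not: replicate 2 was the lowest at MSTRG.41696 and the highest at GABRA5. Deviations from the group mean had the same sign at both in 4 of 6 libraries. This count too rests in part on deviations near 0, of -0.0013 for GABRA5 in control replicate 1 and -0.0074 for MSTRG.41696 in GABA replicate 1. The fold change of MSTRG.41696 was 0.29 on the log2 scale (standard error 0.088). The unadjusted p of edgeR was 0.0065 and its Benjamini-Hochberg adjusted p 0.729, beside an adjusted p of 0.273 from DESeq2. A two-sided exact permutation test gave p = 0.1, the smallest that 3 samples against 3 allow. An unadjusted p under 0.05 with the GABA-treated samples higher was found at 3.08% of the loci tested. The fold change was 0.19 without control replicate 2 and 0.38 without control replicate 3, and stood between these values without any of the other samples.

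MSTRG.41696 was the most abundant of the tested neighbours per length, with 30.4 CPM per kilobase on average against 8.22 at GABRA5. The level per kilobase was between 3.19 and 4.62 times that of GABRA5 in each library. MSTRG.41696 has 1 exon entry, whereas the length of GABRA5 merges 108, which limits this comparison. The count ratio of MSTRG.41696 to GABRA5 was 2.25 ± 0.26 (SD, n = 3) among control and 1.86 ± 0.13 (SD, n = 3) among GABA-treated samples. Whether both belong to the same transcript cannot be read from counts per locus. If they do, the p-values of MSTRG.41696 are not independent of the choice of GABRA5. With the counts of both summed, the normalized counts were 2836 ± 503 (SD, n = 3) among control and 3637 ± 86.4 (SD, n = 3) among GABA-treated samples. The log2 difference of the sum was 0.37, and GABRA5 gave 33.4% of the summed counts.

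The other tested neighbours had few counts. MSTRG.41693, on the same strand 9733 bp beyond the 3′ end of GABRA5, had 102 to 173 counts and a log2 fold change of 0.24 (standard error 0.14). MSTRG.41701, a locus of 11 blocks on the same strand 13692 bp upstream of GABRA5, had 39 to 62 counts and a fold change of 0.28 (standard error 0.20). MSTRG.41699, on the same strand between MSTRG.41701 and GABRA5, had 128 to 166 counts and a fold change of -0.07 (standard error 0.16), which was -0.22 without control replicate 1 and turned to 0.022 without control replicate 3 and to 0.0029 without GABA replicate 3. On the opposite strand, MSTRG.41698, inside an intron of GABRA5, had 4 to 15 counts, and MSTRG.41694, beyond the 3′ end, had 12 to 19. MSTRG.9563, 25784 bp downstream of SLC4A4 on its strand, had 31 to 63 counts and a fold change of 0.23 (standard error 0.22). Each of these 6 loci overlapped between the groups, and their Benjamini-Hochberg adjusted p in edgeR's test lay between 0.809 and 0.963. Of the 9 loci near SLC4A4, 4 overlap its span, and 8 had no more than 14 counts in any library. The reads were counted with strand, so that sense and antisense loci were kept apart in the counts.

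**Figure D5:**
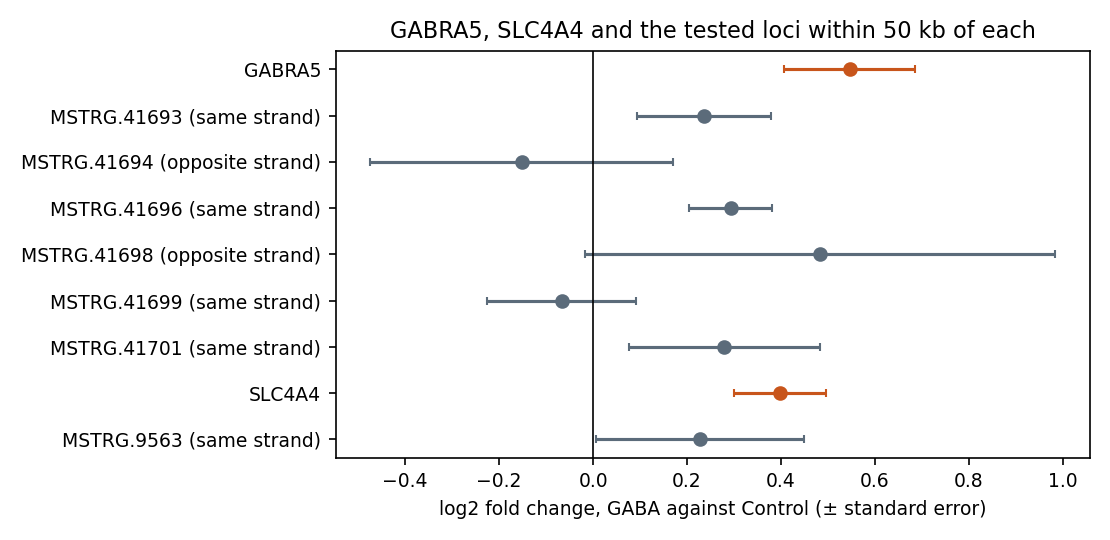
Log2 fold change, GABA against control, with its standard error (x axis), for GABRA5 and SLC4A4 (orange) and for each tested locus within 50 kb of them (gray, y axis). MSTRG.41696, beside the 3′ end of GABRA5, is at 0.29 with the smallest standard error of the neighbours. MSTRG.41699 and MSTRG.41694 are below 0.

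Other genes of GABA, chloride and bicarbonate handling were sought by a list of 59 symbols, which includes receptor subunits, GABA synthesis and uptake, chloride cotransporters, bicarbonate transporters and carbonic anhydrases. Only 3 of the 59 are named at a locus by the study: GABRA5, SLC4A4 and CLCN2, a voltage-gated chloride channel. The study names only loci that it listed as changed after GABA or, in a separate experiment, after baclofen, an agonist of the GABAB receptor. The 3 are therefore not a random part of the 59. CLCN2 had normalized counts of 2861, 2673 and 2925 without GABA and of 2543, 2735 and 2678 with it. The groups overlapped, with a log2 fold change of -0.07 and a Benjamini-Hochberg adjusted p of 0.868 from edgeR. The list therefore gives no view of the other GABAA subunits or bicarbonate transporters in this brainstem.

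Among the loci with a symbol that passed the count filter, the pattern over the 6 samples most like that of GABRA5 was that of COL6A6, a collagen VI chain (Pearson's r = 0.84), followed by SLC4A4 (0.77) and DNAJB4, a DnaJ family chaperone (0.63). For SLC4A4 it was that of TNFAIP3 at MSTRG.30682, a ubiquitin-editing regulator of NF-κB signaling (0.94), followed by DHDH, a dihydrodiol dehydrogenase (0.87), and GABRA5 (0.77). These correlations of log2 CPM over 6 points, in 63 loci each, are descriptions without a test. The 63 are only loci that the study listed as changed after GABA or after baclofen, so other brainstem genes were not compared by name. Of all tested loci, 2.18% had a higher r with GABRA5 than COL6A6 had, and 0.276% a higher r with SLC4A4 than TNFAIP3 had. With the group means taken off, r with GABRA5 was 0.53 for COL6A6, 0.33 for SLC4A4 and 0.34 for DNAJB4. The 3 loci then most like GABRA5 were others, PIM1 (0.88), SULF1 (0.87) and CDO1 (0.85). Over all 6 samples their r with GABRA5 was -0.195, -0.656 and 0.0807. SULF1, itself on the study's list for this contrast, was lower after GABA, with a log2 fold change of -0.374 from edgeR. The likeness given for GABRA5 over all samples thus includes the difference between the groups that chose it. For SLC4A4, r was then 0.92 with TNFAIP3, 0.89 with DHDH and 0.33 with GABRA5, in whose place TAT (0.82) came among the first 3. TNFAIP3 had 39.5, 28.8 and 34.2 normalized counts in control replicates 1, 2 and 3, and 57.0, 52.6 and 34.5 in GABA replicates 1, 2 and 3. It was thus lowest in GABA replicate 3 among the GABA-treated samples, as SLC4A4 was. The raw counts of TNFAIP3 were only 27 to 63 per library, so its counting error is larger than that of SLC4A4. COL6A6 had 76.7 to 83.2 normalized counts in the control samples and 84.2 to 101 in the GABA-treated samples.

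Cell type markers could be followed only where the study names them. The 3 named of 7 neuronal markers (CPLX1, MAP6 and CARTPT) summed to 1250 to 1410 CPM in the control samples and 1140 to 1380 in the GABA-treated samples. For glia 1 of 5 was named, VIM, with 599 to 771 CPM in the control samples and 484 to 598 in the GABA-treated samples. VIM was thus lower in the GABA group, where GABRA5 and SLC4A4 were higher, with hardly a gap between the groups. In replicates 1, 2 and 3 VIM had 771, 599 and 723 CPM without GABA and 541, 484 and 598 CPM with it. Control replicate 2 was the lowest control for VIM as for GABRA5 and SLC4A4. Among the GABA-treated samples the order differed. VIM was highest in replicate 3, where SLC4A4 was lowest, and lowest in replicate 2, where GABRA5 was highest. VIM and CARTPT are themselves on the study's list for this contrast, both among its loci lower after GABA. The neuronal sum does not show CARTPT apart. The 4 named of 5 leukocyte markers summed to 32.0 to 55.3 and 33.9 to 44.3 CPM, and 2 of 4 for vessels and meninges to 25.7 to 36.9 and 27.9 to 39.4 CPM. These sums do not show single markers apart. The sum of the 2 for vessels and meninges, COL6A6 and FBN1, overlapped between the groups. COL6A6 alone did not, with GABA replicate 1 1.27% above control replicate 3. FBN1 is not given apart, so COL6A6 does not stand for both. Groups separated in this direction at 5.14% of the tested loci. None of the 10 was at 0 in any sample, and no blood cell marker was named. As edgeR called 0.0% of all loci, its calls say nothing about these markers. The part of cell composition in the levels of GABRA5 and SLC4A4 was not tested.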

How the data were processed

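Polyadenylated RNA of 6 samples, each of 4 pooled brainstems, was sequenced from both ends with strand kept. The authors used fastp for trimming and STAR for alignment to Pmar_germline 1.0, assembled loci with StringTie and deposited whole-number counts of fragments per locus from featureCounts, by strand, without normalization (versions not given in the sources used here). The handling of fragments with several matches at counting was not stated. The table held 57134 loci, and 2 rows broken over 2 lines were rejoined. All 6 columns matched a sample title. Library totals ran from 12261374 to 14666153 counts.

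Counts were filtered with filterByExpr (24300 loci kept). The test was that of edgeR 4.0.16 after TMM scaling (quasi-likelihood, two-sided, condition only, Benjamini-Hochberg threshold 0.05) in R 4.3.3. DESeq2 1.42.0, the tool of the study, gave size factors and alternative calls above its own minimum mean normalized count of 470.2. Its independent filtering, which sets this minimum, was run for a threshold of 0.1, while loci were called at 0.05. Limma 3.58.1 was used for voom. Standard errors in edgeR were the fold change over the root of F. Correlations used log2 CPM with a prior count of 2. The scripts were checked on simulated counts. Samples pooled different animals, and p-values measure the spread between these pools.

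Gene names are those of the study's supplementary lists of loci changed after GABA or after baclofen. The members and gene lists were chosen with earlier results of these data known. Named were the 2 loci, loci at the threshold, every locus within 50 kb, the 3 named loci most like each, and named loci of the list of 59 symbols. Alternatives were other tools, scalings and filters, the replicate number as a block, a length offset and each sample left out. No sequence is shown, as no genome of this build was used here.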

Additional observations from a re-analysis of the deposited data

How the results depend on the processing

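With edgeR's quasi-likelihood test 0 loci were called at an adjusted p under 0.05 (1591 at an unadjusted p under 0.05). DESeq2 called 23 loci, 7 without independent filtering, and edgeR without the count filter 58. GABRA5 and SLC4A4 were among the 23 and the 58 but not among the 7. With limma-voom, other scalings, a mean count minimum of 100 or a length offset 0 were called, and also with each sample left out, where 1104 to 2247 had an unadjusted p under 0.05. The cause of these differences was not tested. The log2 fold change of GABRA5 ran from 0.38 to 0.74 with a sample left out and from 0.37 to 0.59 otherwise, where the lowest value is that of the sum with MSTRG.41696, an alternative chosen after seeing the data. That of SLC4A4 ran from 0.31 to 0.50 and from 0.38 to 0.44. The change in the log2 count ratio of SLC4A4 to GABRA5 ran from -0.36 to -0.076 with a sample left out. Under the other tools, scalings and filters, the fitted log2 fold change of SLC4A4 less that of GABRA5 was taken instead. It ran from -0.17 to -0.15. With the group means taken off, 2 of the 6 loci most like the members were shared with those named.

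Same-numbered samples correlated at -0.112, 0.0323 and -0.116 in their deviations, and differently numbered ones at -0.0764 to 0.173. Whether replicate numbers pair the samples was not tested. With the replicate block 0 loci were called (1332 at an unadjusted p under 0.05), and the fold changes were 0.57 for GABRA5 and 0.40 for SLC4A4.

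Counting error was small at both loci, whereas at MSTRG.41698 and MSTRG.41694 the counts were too low to show a change of the size seen at GABRA5. The fold change of MSTRG.41698 ran from 0.20 to 1.2 and that of MSTRG.41694 from -0.27 to 0.026 with a sample left out.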
